A study of Mus musculus with 6 samples.

Results

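Glycine receptors are chloride channels that open when glycine binds, and they carry a fast inhibitory current in retinal ganglion cells (RGCs), whose glycinergic input comes mainly from amacrine cells. The alpha subunits, encoded by Glra1, Glra2, Glra3 and Glra4, can form channels by themselves, whereas the beta subunit, encoded by Glrb, joins alpha subunits and holds the receptor at synapses by binding gephyrin (Gphn). Gephyrin is the scaffold protein below glycinergic synapses and many GABAergic ones, and it also catalyses the last steps of molybdenum cofactor synthesis. In several parts of the nervous system, receptors built on the alpha 2 subunit prevail before birth and synaptic receptors with a beta subunit become prominent later.

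These 6 genes were followed by RNA-seq in RGCs purified by immunopanning from C57BL/6 mice at embryonic day 18 (E18) and postnatal day 5 (P5), to compare an age at which the cells extend axons well with one at which they have lost that capacity. They were taken by gene symbol, and all 6 were found among the 24060 genes of the count table. In immunopanning, dissociated retinal cells are cleared of macrophages and then held on dishes coated with antibodies, here against Thy1 (CD90). There were 3 samples at E18 (replicates 1, 3 and 4) and 3 at P5 (replicates 6, 8 and 9) from unmanipulated mice, and the labels do not say whether they come from separate litters, so that p-values measure the spread between these samples, which may be technical. The name of the E18 replicate 1 column includes 2 further numbers (2 and 5), and no source used here says whether preparations were pooled in it.

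The summed gene counts of a sample lay between 81213639 and 114512853. Levels are given as CPM (reads of a gene relative to the library total, scaled by TMM). The identity of the cells was checked with marker lists. All 12 RGC markers passed the filter on low counts, and they summed to 7485 to 8894 CPM at E18 and 8040 to 9553 CPM at P5. The tested markers of Müller glia and astrocytes summed to 403.7 to 447.4 CPM at E18 and 270.7 to 325.4 CPM at P5, and those of dividing cells to 83.84 to 340.7 and 66.04 to 82.91 CPM. The sums for photoreceptors (9 tested) and microglia (7 tested) were at most 12.05 and 2.833 CPM. Bipolar markers were higher at P5 in sum, with 50.09 to 74.81 CPM at E18 and 70.11 to 97.7 CPM at P5, and of 7 tested 2 were lower at E18, among them Prkca (40.7 to 45.5 against 64.8 to 92.2 CPM), and 2 were higher. Endothelial and pericyte markers summed to 16.39 to 72.47 CPM at E18, mostly Kdr, and to 14.49 to 17.6 CPM at P5. Of 7 tested, Kdr was higher at E18, and Rgs5, Pecam1 and Tek were lower at E18 with no overlap, in the direction of the receptor genes and at levels like those of Glra1, Glra3 and Glra4. Rgs5 had 0.0964 to 0.133 CPM at E18 and 1.47 to 3.08 CPM at P5. The part of these cells in the receptor values was not tested. Cdh5, Tmem119, Gfap and Grm6, from the endothelial, microglial, astrocyte and bipolar lists, had at most 11 reads in any sample and were not tested. Other genes of these lists were detected. In the list of Müller glia and astrocytes, mean levels at E18 and P5 were 320 and 251 CPM for Glul and 87.6 and 38.7 CPM for Vim. The amacrine list needs more attention here, because amacrine cells also carry glycine receptors. Its genes summed to 975.6 to 1288 CPM at E18 and 1148 to 1241 CPM at P5, and of 10 tested 4 were higher and 1 was lower at E18. Tfap2b, a transcription factor of amacrine cells, had 47.5 and 119 CPM in E18 replicates 1 and 3, 1.62 CPM in E18 replicate 4 and 1.02 to 1.55 CPM at P5. In E18 replicate 4, where it was near its P5 level, all 6 receptor and gephyrin genes were also below every P5 sample. In bulk samples, fewer cells of a type and less RNA per cell cannot be told apart.

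The regions just before the start sites of the 3 genes with the highest levels are shown because these genes moved in the same direction with age while their promoters differ. They are the 250 bases before the RefSeq start, 5′ to 3′ on the strand of the gene (GRCm38.p6, the assembly named mm10), with each CpG dinucleotide in capitals. They lie at chr3:80913661-80913910 (minus strand) for Glrb, chrX:165327394-165327643 (minus strand) for Glra2 and chr12:78226405-78226654 (plus strand) for Gphn. The RefSeq starts of Gphn and Glra4 lie inside the GENCODE genes given below, so the 250 bases before them do too.
Glrb: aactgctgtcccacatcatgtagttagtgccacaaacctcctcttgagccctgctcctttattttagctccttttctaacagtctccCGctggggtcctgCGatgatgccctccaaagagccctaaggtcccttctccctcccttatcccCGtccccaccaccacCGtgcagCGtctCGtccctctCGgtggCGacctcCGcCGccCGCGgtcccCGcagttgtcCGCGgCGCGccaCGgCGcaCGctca
Glra2: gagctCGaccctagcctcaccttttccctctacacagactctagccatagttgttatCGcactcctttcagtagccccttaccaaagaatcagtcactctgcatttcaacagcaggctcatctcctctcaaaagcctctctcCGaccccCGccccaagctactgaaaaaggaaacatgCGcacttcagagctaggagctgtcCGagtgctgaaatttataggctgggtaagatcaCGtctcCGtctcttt
Gphn: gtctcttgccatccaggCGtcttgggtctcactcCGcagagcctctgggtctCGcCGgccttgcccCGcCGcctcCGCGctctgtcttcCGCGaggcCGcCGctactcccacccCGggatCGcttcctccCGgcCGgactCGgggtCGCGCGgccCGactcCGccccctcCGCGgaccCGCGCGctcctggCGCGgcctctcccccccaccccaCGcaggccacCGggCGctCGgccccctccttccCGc
The Gphn sequence held 34 CpG dinucleotides and 77.2% G and C, that of Glrb 20 and 62.4%, and that of Glra2 8 and 50.4%. The median over 32851 RefSeq start sites was 6 CpG dinucleotides and 52.4% G and C, and 2.97% of them held more CpG dinucleotides than Gphn. Glra3 and Glra4 had 4 and 3, fewer than the median. Glra1 was not matched. On either strand, the TATA box letters TATAAA were found in Glra2 and in none of the other 4, against 12.4% of all start sites. The Ets core CCGGAA, to which Elk-1 binds, was in none of the 5 (12% of all). Of the paired letters bound by the repressor REST, TTCAGCACC was in none of them (0.301% of all) and GGACAGC was in Glrb and Glra2 (5.28% of all). The E-box letters CANNTG were in Glrb and Glra3 (66.2% of all), and the GC box GGGCGG was in all but Glra4 (32.7% of all). A match is a description of the sequence only.

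The comparison of E18 with P5 asked how the receptor genes differ between the ages. All 6 were lower at E18, with adjusted p between 0.00028 and 0.009 by edgeR's quasi-likelihood test over the 16449 genes tested. Of all genes tested, 43.4% passed in either direction, 22.5% were lower at E18 and 20.8% were higher. The 3 E18 values of each of the 6 genes lay below its 3 P5 values, which held for 28.5% of all genes tested. In 4 of the 6, Glrb and the alpha subunits 1, 3 and 4, the level was at least 4-fold lower at E18, against 3.08% of all genes tested that were called and lower by that size, and the same 4 made up those lower by at least 2-fold, against 9.53%. The number at least 4-fold lower fell to 2, Glrb and Glra4, without P5 replicate 9 or without E18 replicate 3. The median log2 fold change (E18 over P5) was -2.07 over the 6 genes and 0.0047 over all genes tested. Each gene passed the expression filter in all 6 samples, where it asked for 0.108 CPM.

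**Figure D1:**
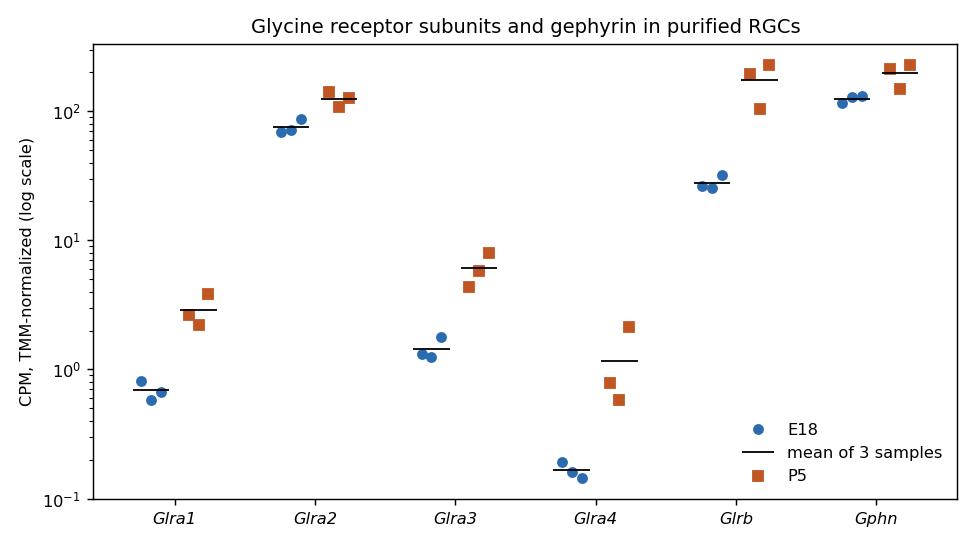
Level of each gene in each sample, in TMM-normalized CPM on a log axis. Circles are the 3 E18 samples, squares the 3 P5 samples in the order of their numbers, and bars the mean of 3 samples. Every E18 point lies below every P5 point of the same gene, and P5 replicate 8, in the middle of its group, is the lowest P5 point for all genes but Glra3.

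Glrb, the beta subunit (ENSMUSG00000028020.16, chromosome 3, 80843599 to 80913660, minus strand), showed the clearest change. It had 26.2, 25.4 and 31.9 CPM in E18 replicates 1, 3 and 4, and 193, 105 and 229 CPM in P5 replicates 6, 8 and 9. The groups were far apart, since the lowest P5 sample was 3.29 times the highest E18 sample. The mean rose from 27.8 ± 3.56 to 176 ± 64.0 CPM (SD, n = 3 each), or 6.32-fold. The log2 fold change (E18 over P5) was -2.66, with a standard error of 0.262, a 95% interval of -3.26 to -2.06 and an adjusted p of 0.00028 by the edgeR test. Of the genes tested, 221 had a log2 fold change as low or lower, which is 1.34% of them.

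Gphn, the scaffold to which the beta subunit binds (ENSMUSG00000047454.12, chromosome 12, 78226379 to 78684772, plus strand), was abundant at both ages and changed less. It had 116, 128 and 131 CPM in E18 replicates 1, 3 and 4, and 212, 150 and 229 CPM in P5 replicates 6, 8 and 9. The groups did not overlap, although P5 replicate 8 was 1.14 times the highest E18 sample. The mean was 125 ± 7.83 CPM at E18 and 197 ± 41.7 CPM at P5 (SD, n = 3 each), a 1.57-fold difference. Its log2 fold change was -0.65 (standard error 0.151, 95% interval -0.995 to -0.31, adjusted p = 0.009 with edgeR).

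Glra2, the alpha subunit associated with immature neurons (ENSMUSG00000018589.8, chromosome X, 165129017 to 165327393, minus strand), was the main alpha transcript at both ages. Its values were 68.5, 71.6 and 86.6 CPM in E18 replicates 1, 3 and 4, and 141, 108 and 126 CPM in P5 replicates 6, 8 and 9. It thus did not decline by P5, and every P5 sample was above every E18 sample. The mean was 75.6 ± 9.71 CPM at E18 and 125 ± 16.5 CPM at P5 (SD, n = 3 each), 1.65-fold higher at P5 (log2 fold change -0.72, standard error 0.129, 95% interval -1.02 to -0.43, adjusted p = 0.00293 with edgeR).

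The other alpha subunits were scarce. Glra3 (ENSMUSG00000038257.9, chromosome 8, 55940460 to 56130070, plus strand) had 1.33, 1.25 and 1.78 CPM in E18 replicates 1, 3 and 4, and 4.38, 5.75 and 8.03 CPM in P5 replicates 6, 8 and 9. Glra1, the alpha subunit of adult spinal cord and brainstem (ENSMUSG00000000263.15, chromosome 11, 55514238 to 55608198, minus strand), had 0.808, 0.58 and 0.674 CPM at E18 and 2.62, 2.21 and 3.82 CPM at P5 in the same order. Both stood apart between the ages by more than their spread, 4.17-fold for Glra3 and 4.2-fold for Glra1. Their log2 fold changes were -2.06 (standard error 0.27, adjusted p = 0.000837 by the edgeR test) and -2.07 (standard error 0.28, adjusted p = 0.000916).

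Glra4 (ENSMUSG00000018595.6, chromosome X, 136757674 to 136780141, minus strand) was the least abundant, with 16, 18 and 13 reads in E18 replicates 1, 3 and 4, and 69, 57 and 202 reads in P5 replicates 6, 8 and 9. These correspond to 0.144 to 0.193 CPM at E18 and to 0.778, 0.579 and 2.15 CPM at P5. The log2 fold change was -2.81 (standard error 0.528, 95% interval -4.01 to -1.61, adjusted p = 0.00366 by the edgeR test). P5 replicate 9 set much of its size, and without it the log2 fold change was -2.03 (adjusted p = 0.00509). On the other strand, Glra4 overlaps BC065397, a noncoding transcript. It had 477, 562 and 512 reads at E18 and 458, 331 and 297 reads at P5, not scaled for library size. Library sizes differed between samples, so these reads do not order the samples by level. Glra1 overlaps an antisense gene, Gm12236, that is not a row of the table, and Gphn overlaps 3 unclassified genes on its own strand that are no rows either. These overlaps are between whole gene spans, and overlap of exons was not examined. No source used here says whether strand was used in counting, so reads from any shared exon may not be told apart.

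The fold changes were followed with each sample left out in turn. All 6 genes were called in each of the 6 fits. Glrb ranged from -2.94 without P5 replicate 8 to -2.42 without P5 replicate 9 on the log2 scale, and Glra2 from -0.84 to -0.64. Glra1 ranged from -2.25 to -1.82 and Glra3 from -2.27 to -1.80, both smallest in size without P5 replicate 9. Gphn had the least margin, with adjusted p from 0.000392 to 0.0384 over these fits by the edgeR test.

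**Figure D2:**
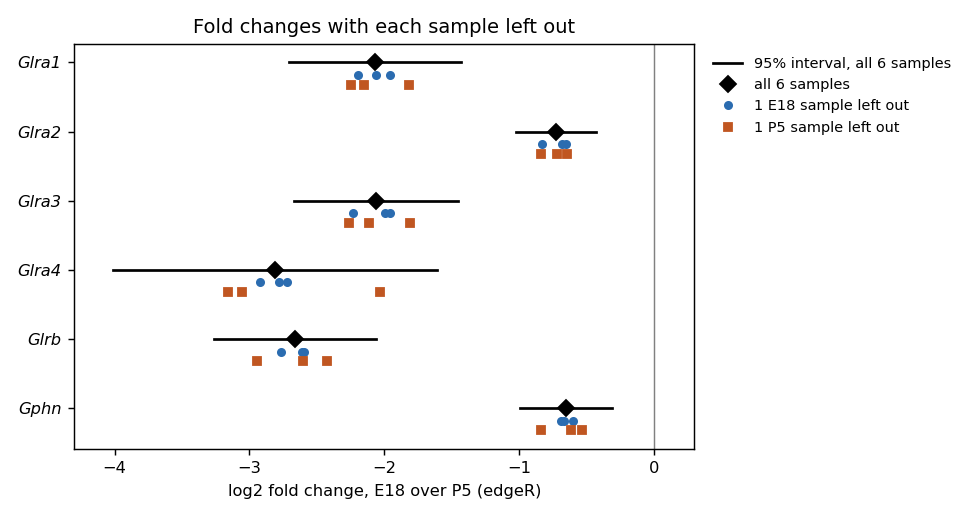
Log2 fold change of E18 over P5 for each gene. Diamonds with bars are the estimates from all 6 samples with their 95% intervals, circles the estimates with 1 E18 sample left out, and squares those with 1 P5 sample left out. All points are below 0, and Glra4 moves furthest, from -3.16 to -2.03.

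The P5 samples varied more than the E18 samples for all 6 genes. The coefficient of variation was 6.26% to 19.7% at E18, and at P5 it was 13.2% for Glra2, 21.2% for Gphn, 36.4% for Glrb and 73.1% for Glra4. P5 replicate 9 was the highest P5 sample for 5 of the 6 genes (Glra2 was highest in replicate 6), and P5 replicate 8 was the lowest for 5 of them (Glra3 was lowest in replicate 6). The RGC marker sum had the same order among these samples, with 8040, 8707 and 9553 CPM in P5 replicates 8, 6 and 9. Nefl, the largest part of this sum at P5, had 2361, 2919 and 3462 CPM in these samples. Slc17a6, Thy1, Nefm and Nrn1 had the same order, whereas Pou4f1, Pou4f2, Pou4f3, Isl1 and Tubb3 had the reverse order. Pou4f1 had 712, 536 and 483 CPM in P5 replicates 8, 6 and 9. Rbpms and Sncg had neither order. Thy1 itself had 212, 217 and 312 CPM at E18 and 500, 469 and 690 CPM at P5. The part of these differences in the receptor values was not tested.

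Levels of different genes were set side by side per kilobase of exon. At E18 the order was Gphn (33.4 ± 2.09 CPM per kb), Glra2 (24.0 ± 3.08), Glrb (5.97 ± 0.765), Glra1 (0.285 ± 0.0475), Glra3 (0.158 ± 0.0311) and Glra4 (0.0824 ± 0.0125; SD, n = 3 for each), and no neighbours in this order overlapped. This held for the length of all exons. With the longest transcript, Glra1 and Glra3 overlapped at E18. With the coding sequence, Glra2 came before Gphn, with overlap, and Glra3 before Glra1. At P5 the order per kilobase of exon was again Gphn (52.5 ± 11.1), Glra2 (39.6 ± 5.23), Glrb (37.8 ± 13.7), Glra1 (1.19 ± 0.345), Glra3 (0.657 ± 0.2) and Glra4 (0.581 ± 0.425). There Gphn and Glra2, Glra2 and Glrb, and Glra3 and Glra4 overlapped between samples, so that their places cannot be told apart, and with the length of the longest transcript or of the coding sequence Glrb came first. Glrb thus stood below Glra2 in every sample at E18, and their ranges overlapped at P5.

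The composition of the receptor transcripts is given as a description, since it joins several of the genes. The ratio of the Glrb level to the summed alpha level, both per kilobase, was 0.252, 0.235 and 0.244 in E18 replicates 1, 3 and 4, and 0.888, 0.624 and 1.14 in P5 replicates 6, 8 and 9. The E18 samples were nearly equal in this ratio, and all 3 P5 samples were higher. The mean ratio was 3.62 times higher at P5, and 3.1 to 4.15 times with any sample left out. With other gene lengths the ratios themselves moved and this factor was 3.6 and 3.59. That is no check on the factor, since each length is the same at both ages and Glra2 dominates the alpha sum. The ratio of Glrb to Gphn rose in the same way, from 0.16 to 0.196 at E18 to 0.565 to 0.807 at P5.

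Among the alpha subunits, Glra2 made up 97.4%, 98.0% and 98.1% of the summed level per kilobase in the E18 samples and 95.8%, 94.9% and 91.9% in P5 replicates 6, 8 and 9. The remainder was therefore small at both ages and larger in every P5 sample. Glra1 accounted for 1.18% ± 0.28 at E18 and 2.84% ± 0.71 at P5, Glra3 for 0.64% ± 0.0521 and 1.59% ± 0.511, and Glra4 for 0.343% ± 0.0877 and 1.36% ± 0.953 (SD, n = 3 each). Counts per gene do not separate splice forms, and transcript shares are not shares of receptors at the surface.

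**Figure D3:**
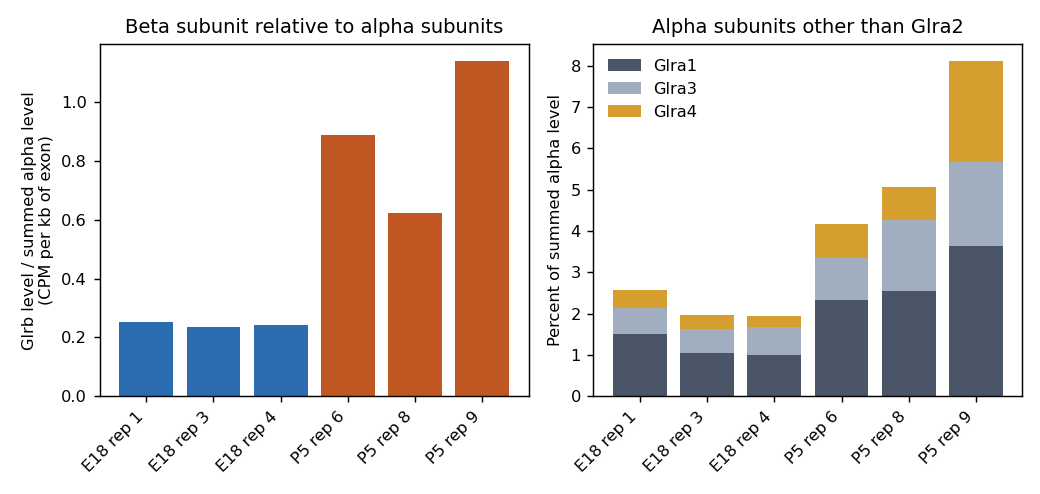
Left, the ratio of the Glrb level to the summed level of the 4 alpha subunits in each sample, both in CPM per kb of exon. Right, the percent of the summed alpha level contributed by Glra1, Glra3 and Glra4 in each sample, stacked, with Glra2 as the remainder to 100%. The ratio is 0.235 to 0.252 at E18 and 0.624 to 1.14 at P5, and the stacked share is 1.94% to 2.57% at E18 and 4.17% to 8.12% at P5.

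Among 17 partners of gephyrin and the beta subunit, 2 were higher at E18, 3 were lower and 12 did not pass, with a median log2 fold change of 0.04 against 0.0047 over all genes tested. The 3 that were lower at E18 are proteins of inhibitory synapses. Pacsin1 (syndapin I), which binds the beta subunit, had 26.2 ± 3.32 CPM at E18 and 59.1 ± 13.7 CPM at P5 (SD, n = 3 each; log2 fold change -1.17, adjusted p = 0.00125 by the edgeR test). Iqsec3, an exchange factor that binds gephyrin, had 93.7 ± 10.7 and 176 ± 37.1 CPM (-0.91, adjusted p = 0.00243 in edgeR), and Slitrk3, an adhesion protein that organizes inhibitory synapses, had 15.4 ± 0.787 and 27.7 ± 3.24 CPM (-0.85, adjusted p = 0.00105 in edgeR). Enah, an actin regulator, and Gsk3b, a kinase that phosphorylates gephyrin, were higher at E18 (log2 fold changes 0.77 and 0.33, adjusted p = 0.00289 and 0.0168 in edgeR). Without P5 replicate 8, 9 of the 17 passed.

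The genes that release or take up glycine were low. Slc6a9, the transporter GlyT1, had 6.74 to 7.68 CPM at E18 and 7.67 to 9.42 CPM at P5 (log2 fold change -0.21, adjusted p = 0.268 in edgeR). Slc6a5, the neuronal transporter GlyT2, had 45 reads in E18 replicate 3 and 1 to 5 reads in the other samples and was not tested. Slc32a1, which loads glycine and GABA into vesicles, had 4.87 and 8.30 CPM in E18 replicates 1 and 3 against 0.221 in E18 replicate 4 and 0.226 to 0.356 CPM at P5. Its log2 fold change was 3.89 (adjusted p = 0.0136 in edgeR), its groups overlapped, and it did not pass without P5 replicate 6. It was high in the same samples as Tfap2b.

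Of 6 genes of glycine metabolism, 4 were higher at E18 and 1 was lower, with a median log2 fold change of 0.71. Gldc, the decarboxylase of the glycine cleavage system, had 22.2, 7.28 and 3.08 CPM in E18 replicates 1, 3 and 4, and 0.808 to 2.01 CPM at P5 (log2 fold change 2.81, adjusted p = 0.0101 in edgeR). Summed dividing-cell markers followed the same order in these E18 samples, with 340.7, 136.9 and 83.84 CPM, and their part in this value was not tested. Gcsh, the carrier protein of the same system, was lower at E18, with 26.5 ± 0.592 against 47.8 ± 8.16 CPM (SD, n = 3 each; log2 fold change -0.85, adjusted p = 0.00162 in edgeR).

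The other role of gephyrin was followed in 9 genes of molybdenum cofactor synthesis and of the enzymes that use the cofactor. Of these, 5 were lower at E18 and 1 was higher, with a median log2 fold change of -0.39, and 1 to 3 of the 9 passed when E18 replicate 1, 3 or 4 or P5 replicate 6 or 9 was left out. The largest of these differences was that of Mocos, which adds sulfur to the cofactor, with 0.245 ± 0.0721 CPM at E18 and 0.912 ± 0.333 CPM at P5 (SD, n = 3 each; log2 fold change -1.90, adjusted p = 0.00467 in edgeR). The gene that was higher, Marc2, encodes a reductase of the outer mitochondrial membrane that uses the cofactor (log2 fold change 0.39, adjusted p = 0.0173 in edgeR).

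Glycine receptors hyperpolarize a neuron only where its chloride is kept low. Of 8 genes that set the chloride gradient, 1 was higher at E18 and 2 were lower, with a median log2 fold change of -0.11. Slc12a5, the chloride exporter KCC2, had 70.9, 58.3 and 93.9 CPM in E18 replicates 1, 3 and 4, and 230, 187 and 404 CPM in P5 replicates 6, 8 and 9 (log2 fold change -1.88, adjusted p = 0.00146 in edgeR). Clcn2, a chloride channel, was higher at E18 in every sample (76.2 ± 5.79 against 40.1 ± 2.4 CPM, SD, n = 3 each; log2 fold change 0.93, adjusted p = 0.000355 in edgeR).

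Several GABA-A receptor subunits are also anchored by gephyrin. Of 15 tested among 19 subunits, 9 were lower at E18 and 2 were higher, with a median log2 fold change of -0.82. The extremes were Gabrg1 (4.65 ± 0.21 against 53.9 ± 4.08 CPM, SD, n = 3 each; log2 fold change -3.54, adjusted p = 4.41e-06 in edgeR) and Gabrd, which was high only in E18 replicates 1 and 3 (4.92 and 8.49 CPM, against 0.0884 in E18 replicate 4 and 0.396 to 0.84 CPM at P5; log2 fold change 3.04, adjusted p = 0.0492 in edgeR).

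**Figure D4:**
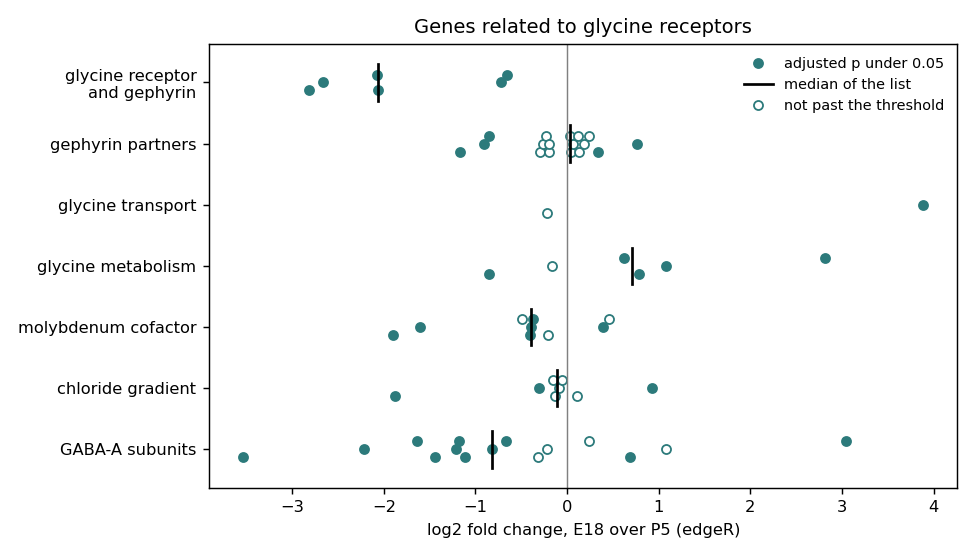
Log2 fold change of E18 over P5 for every tested gene of 7 lists. Filled circles passed the adjusted p threshold, open circles did not, and black bars mark the median of lists of 5 or more genes. All 6 receptor and gephyrin genes are filled and left of 0, whereas gephyrin partners center on 0.04.

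The genes whose profiles were most like those of the receptor genes were sought among 9722 other genes whose mean reached 10 CPM. Likeness was the root mean square difference over the 6 samples between log2 CPM values, each centred on its own mean. For Glrb the nearest were Mal2, Mgll and Cdkl4, with differences of 0.118, 0.135 and 0.136, against a range of 3.17 for Glrb itself. For Gphn they were Fh1, Plcb4 and Oxr1 (0.0369 to 0.0492), and for Glra2 Cgref1, Zdhhc2 and Smpdl3a (0.0409 to 0.0493). For Glra1 they were Btbd11, Unc5d and Erap1 (0.104 to 0.118), for Glra3 4833424O15Rik, Scn1a and Nptx2 (0.16 to 0.168), and for Glra4 Cx3cl1, 6330403A02Rik and Itpr1 (0.226 to 0.259). The closest matches were those of Gphn and Glra2, the genes with the smallest ranges, and the least close those of Glra4, with the largest.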

How the data were processed

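RNA-seq of immunopanned RGCs from 3 E18 and 3 P5 samples was analysed. The authors prepared ribosome-depleted libraries (the labels also name polyA RNA), sequenced paired ends, used STAR for alignment (mm10) and HT-seq for counting on RefSeq models, and deposited raw counts. The submitters' processing notes also name CASAVA 1.8.2 and edgeR. The deposited normalized counts (a signal scaled by the authors), log2 fold changes and p-values from the authors' EdgeR comparison were not used.

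After TMM scaling, the quasi-likelihood test in edgeR 4.0.16 (R 4.3.3) compared the ages over the 16449 genes kept by filterByExpr; p-values were adjusted by Benjamini-Hochberg and called at 0.05. Replicates differed by more than sampling noise (chi-square per degree of freedom of 32.1 to 149). The test was also run on simulated counts, and the outcome is not reported here. Lengths and coordinates are from GENCODE M21 (mm10), matched by symbol, and level per kb uses the union of exons. Start-site sequences are from RefSeq (GRCm38.p6), with 5 of the 6 genes matched.

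The genes and lists were chosen with earlier results of these data known. Named are the 6 genes, the called genes furthest above and below at E18 in each list, called gephyrin partners and glycine transporters, and the 3 nearest profiles. Slc6a9, Slc6a5, the marker genes, BC065397 and Gm12236 were named outside that rule, after their values were seen, and some list genes are not reported here by name. Alternatives were other normalizations, DESeq2 1.42.0, the exact and likelihood ratio tests of edgeR, other filters, other lengths and the omission of each sample.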

Additional observations from a re-analysis of the deposited data

How the results depend on the processing

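All 6 genes stayed lower at E18 and past the threshold in each of 13 alternative fits, except that Glra4 fell below the filter at a mean of 1 CPM. No paired analysis was possible because the ages share no replicate number. With each sample left out, the calls over all genes ranged from 4575 (without E18 replicate 3) to 8796 (without P5 replicate 8), 2137 to 4135 of them higher and 2438 to 4661 lower at E18. The genes at least 4-fold lower at E18 numbered 2 to 4 of the 6. Called gephyrin partners ranged from 4 to 9, glycine transport genes from 0 to 1 and molybdenum cofactor genes from 1 to 6. With the length of the longest transcript, the ratio of Glrb to the summed alpha level was 0.373 at E18 and 1.35 at P5, and 3 of 6 genes kept their place in the P5 order. With the coding length, the ratios were 0.326 and 1.17, the share of Glra2 at E18 was 97.2%, and 2 of 6 genes kept their place in the order at each age. These shifts follow from the lengths themselves. DESeq2 gave the 6 genes adjusted p of 1.2e-25 to 0.000379. Counting error was largest for Glra4, with 13 to 18 reads in each E18 sample.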
